A study of Homo sapiens with 12 samples.

Results

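Replication-dependent histone genes are the multicopy genes that supply the linker histone H1 and the core histones H2A, H2B, H3 and H4 while DNA is copied. They were taken here as every row of the counts table whose gene symbol starts with H2AC, H2BC, H3C or H4C followed by a number, or is one of H1-1 to H1-5, and which GENCODE release 44 annotates as protein-coding. This gave 68 of the 63541 genes in the table, of which 5 encode H1, 16 H2A, 19 H2B, 13 H3 and 15 H4. Of the 63541 gene IDs, 58160 are in GENCODE 44, and the rest had no symbol to match. In GENCODE, 82 symbols follow the rule. The 13 that are pseudogenes or other biotypes were left out, and 1 protein-coding gene, H2AC8, was not analysed here. By position, 53 of the 68 lie in the large histone cluster on chromosome 6, 11 in a smaller cluster on chromosome 1, 2 in another place on chromosome 1, 1 on chromosome 12 and 1 on chromosome 21.

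The RNA came from HEK293T, a human embryonic kidney line that carries the SV40 large T antigen and is labelled epithelial. Cells were transfected with 12.5 nM siRNA and collected after 48 h. There were 4 groups of 3 libraries: a scramble siRNA as control, together with si-snaR-A#1, #2 and #3. The numbered siRNAs target snaR-A, a small noncoding RNA made by RNA polymerase III. They are not independent in sequence. As the paper lists them, #3 contains the whole of #2 with a further base at its start, and #1 shares most of its bases with both. The series describes the replicates as biological, all groups share the cell line, dose and time, and rRNA was removed and poly(A) RNA selected before stranded library preparation. The study asked how snaR-A bears on mRNA splicing, and the usual mRNAs of the histone genes mostly have no introns. Of the 68 genes, 15 also have a longer annotated transcript that is spliced. Which form the counts came from was not tested.

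Histone mRNAs of this class are unlike other mRNAs. Their 3′ end is normally formed by a cut just after a conserved stem-loop, which is bound by SLBP, in a reaction guided by the U7 snRNP, and no poly(A) tail is added. They accumulate in S phase with DNA synthesis and are degraded when it stops. Some of the same genes also give longer, polyadenylated transcripts that end past the stem-loop, in particular in cells that do not divide. A library enriched for poly(A) RNA therefore holds little of the total histone mRNA, and the levels below describe the RNA that was captured and assigned, not the pool in the cell. In bulk RNA, fewer cells in S phase and less histone RNA in each cell cannot be told apart.

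A stem-loop was found by its letters within 100 bases after the stop codon in 67 of the 68 genes, 98.5%, and in 26 of 19855 other protein-coding genes, 0.131%, among them H2AX, H1-6, H3-4 and H3-7. H2BC12L had none in that window. The search asked for a 16-base run, with stem arms GGNNNT and ANNNCC that pair (G with T allowed) and a loop of 4 bases between them, on the strand of the mRNA. The 6 genes below carry the main results and show the 4 common forms. Capitals mark the stem-loop, with 5 bases on each side in lower case, read 5′ to 3′ on the gene's strand from GRCh38.
H1-2: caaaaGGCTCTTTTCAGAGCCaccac
H2BC12: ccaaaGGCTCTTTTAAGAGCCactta
H2BC21: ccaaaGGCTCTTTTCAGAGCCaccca
H2BC26: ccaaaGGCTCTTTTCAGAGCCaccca
H4C3: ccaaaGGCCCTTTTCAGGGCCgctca
H4C14: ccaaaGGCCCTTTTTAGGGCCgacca
The capitals of H1-2 lie at chr6:26055744-26055759 on the minus strand, those of H2BC12 at chr6:27146366-27146381 on the minus strand and those of H2BC21 at chr1:149886188-149886203 on the minus strand. Those of H2BC26 lie at chr1:228458538-228458553, those of H4C3 at chr6:26104317-26104332 and those of H4C14 at chr1:149833032-149833047, each on the plus strand. All of these are in the 3′ UTR next to the coding sequence. Among all 67, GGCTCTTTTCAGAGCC was the most frequent, in 39 genes of the H1, H2A, H2B and H3 classes, and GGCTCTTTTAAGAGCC was in 8. H4 genes had their own forms, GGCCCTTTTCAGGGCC in 10 and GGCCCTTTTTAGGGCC in 4 of 15.

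Most histone genes were at low levels in these libraries. Levels are given as CPM, counts per 1 M counts of the TMM-normalised library, from deposited estimated counts with 120.4 to 180.1 M counts in each library. The 68 genes summed to 99.5 CPM on average, against 2155.5 CPM for the 12 replication-independent histone genes listed for comparison, such as those of H2AZ and H3.3. The 5 most abundant genes took 63.2% of that sum and the 17 with a mean of at least 1 CPM took 91.4%. H2BC12 led with 16.6 CPM, followed by H1-2 with 15.3, H4C15 with 12.2, H4C14 with 10.7 and H2AC19 with 8.01 CPM. The next were H2BC21 (6.75 CPM), H2BC15 (4.75), H2BC26 (2.54) and H2BC5 (2.49). H2BC11, H1-4, H4C3, H2AC6, H2BC18, H2AC18, H3C6 and H3C10 had between 1.06 and 1.89 CPM. Per kilobase of exon, which allows genes to be compared, H2BC12 again had the highest level, 33.6 CPM per kb, and H1-2 had 20.99, whereas the long exons of H4C14 and H4C15 put them at 5.69 and 6.49 CPM per kb.

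At the other end, 21 of the 68 genes did not pass the filter on low counts and have no test. Of these, 9 were listed at 0 in all 12 libraries, namely H2BC1, H3C4, H2BC12L, H2AC1, H4C6, H2BC10, H3C8, H2AC14 and H4C13. The other 12, H4C12, H2AC4, H3C7, H2BC8, H2BC3, H2BC14, H2AC25, H1-1, H3C3, H3C11, H4C7 and H1-5, had means of at most 0.0435 CPM. A listed 0 may also be a failed assignment, because CASP8AP2, a gene used in S phase, was itself at 0 in every library. The filter kept 47 genes with means from 0.0518 CPM upward, and since it keeps a gene that is high enough in 1 group only, counts over these 47 are not counts over all members.

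Annotated transcripts differ between members in how far they run. Of the 68 genes, 17 have an annotated transcript that runs more than 50 bases past the stem-loop, and in 15 of the 17 at least 1 such transcript is spliced. Of these 17 genes, 11 had a mean of at least 1 CPM, against 6 of the 51 without such a transcript, and the median level was 0.758 against 0.186 CPM per kb. H2BC12 and H1-2, the highest 2, are among the 51. A polyadenylation hexamer AATAAA stood within 500 bases after the stem-loop in 13 genes, 6 of them with at least 1 CPM.

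Copies of a gene can trade reads. H4C14 and H4C15 share 98.6% and 100% of their 31-base words, H2AC18 and H2AC19 100% and 99.8%, H3C14 and H3C15 99.2% and 100%, and H4C11 and H4C12 92.5% and 93.0%. The split was unstable for some of them. H2AC18 was at 5.48 CPM in scramble replicate 1, 4.41 in si-snaR-A#1 replicate 3 and 4.76 in si-snaR-A#3 replicate 1, and at 0 in the other 9 libraries, while H2AC19 was low in those same 3 libraries. H3C14 and H3C15 alternated in the same way. For these 4 pairs the sum of both genes is therefore used beside the single rows. Over all members, the median gene shared 10.6% of its words with any other gene. H2BC12 shared 71.0%, with 61.9% in a single gene outside the set, and was not summed with that gene. Exons of 11 genes overlap those of another gene, H2BC26 with MIR4666A on its own strand and H2BC18 with FCGR1A and H2BC4 with HFE on the other strand.

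Libraries of the same group differed, and this touches the histone genes directly. The 7SL RNA of the signal recognition particle, as RN7SL1 plus RN7SL2, was at 5.80 to 8.80 CPM in 5 libraries, scramble replicate 3, all 3 of si-snaR-A#1 and replicate 1 of si-snaR-A#2. It was at 62.7 to 129 CPM in the other 7, scramble replicates 1 and 2, replicates 2 and 3 of si-snaR-A#2 and all 3 of si-snaR-A#3. RN7SK went the other way, with 9.49 to 20.2 CPM in the 5 and 0 to 4.66 CPM in the 7. Neither RNA carries a poly(A) tail as a rule, and the labels name no batch. The 5 are called low-7SL and the 7 high-7SL libraries below, names given from these values and not by the study. si-snaR-A#1 has no high-7SL library and si-snaR-A#3 no low-7SL library, so for these siRNAs the comparison with scramble rests in part on scramble replicates from the other kind.

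**Figure D1:**
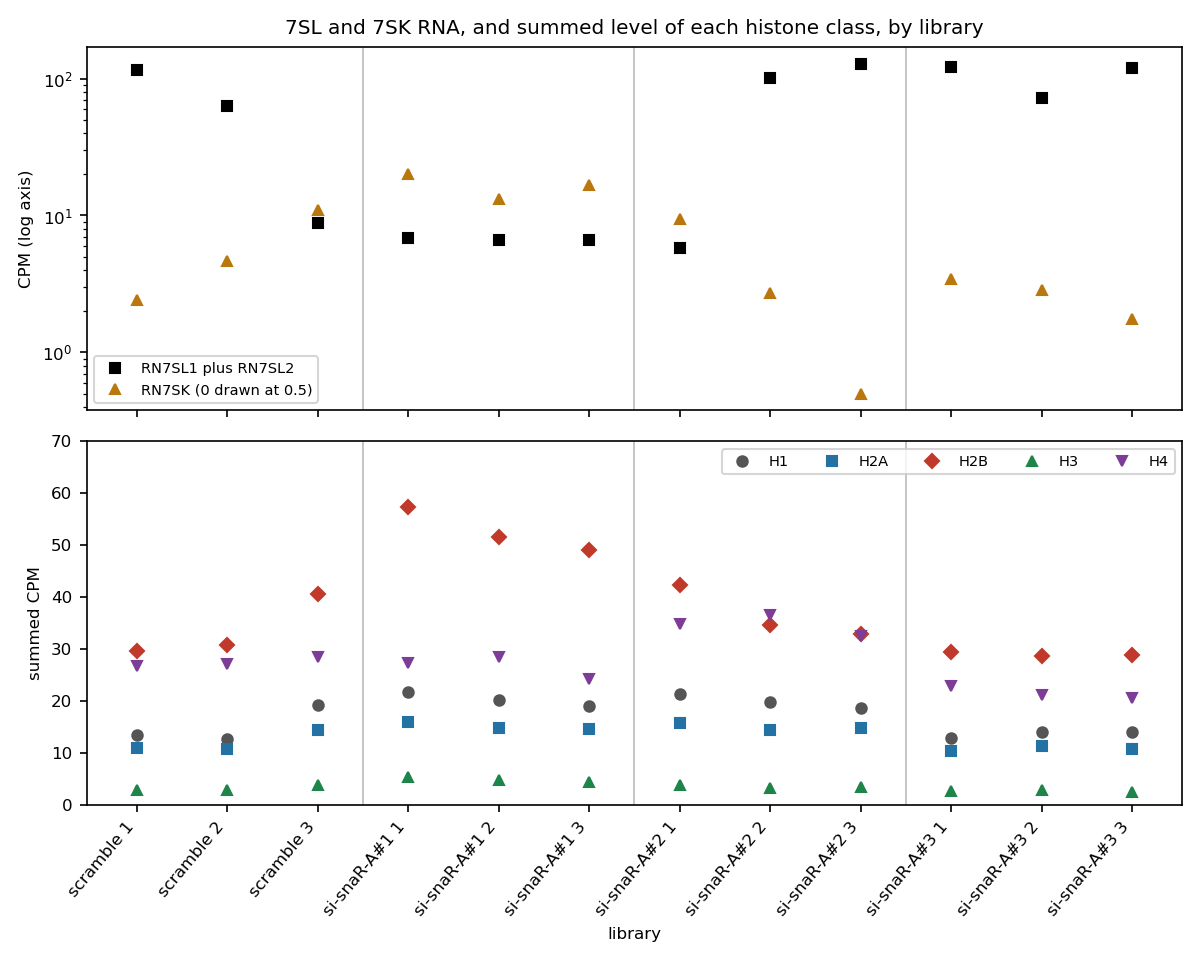
RN7SL1 plus RN7SL2 and RN7SK in CPM on a log axis with a 0 drawn at 0.5 (upper panel) and the summed CPM of all genes of each histone class (lower panel, linear axis) in each of the 12 libraries, with grey lines between groups. 7SL RNA was at 5.80 to 8.80 CPM in 5 libraries and at 62.7 to 129 CPM in 7, and the H2B sum in scramble replicate 3, 40.6 CPM, lay above the 29.7 and 30.7 CPM of the other scramble replicates.

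Within a group, most histone genes were higher in the low-7SL library. In scramble, 35 of the 47 tested genes (74.5%) were highest in replicate 3, against 33.3% of all 21999 genes tested, and 6 were lowest there. In si-snaR-A#2, 29 of 47 (61.7%) were highest in replicate 1, against 31.8% of all genes. Both held for 27 genes (57.4%, against 10.2% of all genes), and the median histone gene was 1.498-fold higher in scramble replicate 3 than in the mean of replicates 1 and 2 and 1.24-fold higher in si-snaR-A#2 replicate 1 than in the mean of replicates 2 and 3. These are counts within groups of 3 libraries and carry no test.

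The size of this difference varied widely between members. H2BC18 was at 0.303 and 0.436 CPM in scramble replicates 1 and 2 and at 2.16 in replicate 3, and at 1.86 CPM in si-snaR-A#2 replicate 1 against 0.370 and 0.437 in replicates 2 and 3. H1-4, a linker histone gene, was at 0.671, 0.767 and 2.77 CPM in the scramble replicates and at 2.18, 0.917 and 0.835 CPM in those of si-snaR-A#2. The low-level H1-3, H4C5, H4C8 and H4C16 went the same way, with 8.97-fold, 4.03-fold, 3.12-fold and 2.88-fold higher values in scramble replicate 3. By contrast, the summed H4C14 and H4C15 genes were at 22.6 CPM in each scramble replicate. H4C3 was lower in the low-7SL libraries, by a factor of 0.667 in scramble and 0.810 in si-snaR-A#2. H2BC26 was mixed, with 1.08-fold in scramble and 6.17-fold in si-snaR-A#2.

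**Figure D2:**
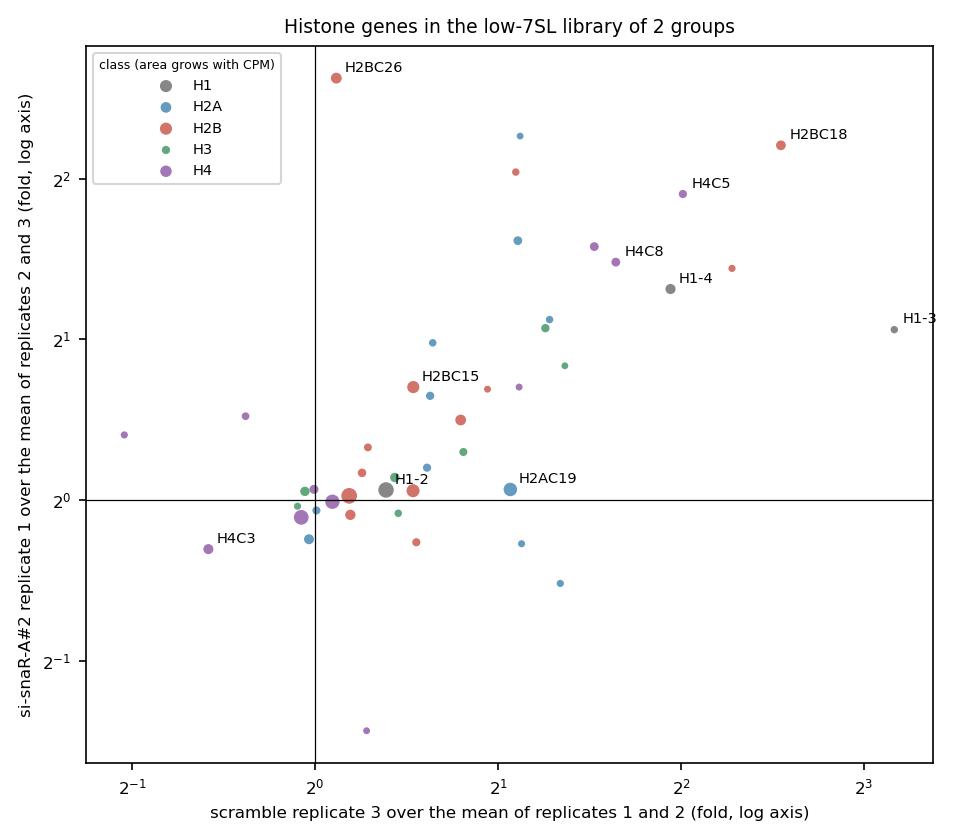
Each point is 1 of 45 tested histone genes with both folds above 0, coloured by class, with the point size growing with mean CPM. The horizontal axis is the fold of scramble replicate 3 over the mean of replicates 1 and 2, and the vertical axis that of si-snaR-A#2 replicate 1 over the mean of replicates 2 and 3, both on log axes. Most points lie above 1 on both, H2BC18 at 5.84 and 4.62, and H2BC26 stands at 1.08 and 6.17.

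For this reason the main comparisons are given first over all libraries as planned, then with a term for low-7SL or high-7SL libraries added to the model. For some genes the values within 1 kind of library follow. Among low-7SL libraries there is 1 of scramble and 1 of si-snaR-A#2, so these values have no replicate on the scramble side and are given without a p. All tests are edgeR's quasi-likelihood test with Benjamini-Hochberg adjustment over the 21999 genes tested, called at an adjusted p under 0.05. The share of the change that goes with 7SL and the share that goes with si-snaR-A#1 or #3 cannot be told apart fully, because neither siRNA has both kinds of library.

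The 3 siRNAs gave 3 different pictures. With si-snaR-A#1, 11 of 47 tested histone genes rose, 23.4%, where 21.9% of all genes rose, and 2 fell, 4.26%, where 23.3% of all genes fell. The median histone gene was 0.50 higher on the log2 scale, with 41 of 47 above 0, while the median over all genes was -0.02. With si-snaR-A#2, 5 of 47 rose (10.6%, against 13.7% of all genes) and 0 fell (12.1% of all genes), with a median of -0.03, the same as over all genes. With si-snaR-A#3, 0 rose (16.5% of all genes) and 5 fell (10.6%, against 13.0% of all genes), with a median of -0.17. The shares that rose with si-snaR-A#1 and #2 and fell with si-snaR-A#3 were thus near those of all genes, and the difference lay in the few calls in the opposite direction. Of the 47, only 17 had a mean of at least 1 CPM, and the shares over all genes were not matched for level. At an unadjusted p under 0.05, 18, 5 and 7 of the 47 passed with the 3 siRNAs. The count of 13 for si-snaR-A#1 rested on single libraries, with 17 called without scramble replicate 3, 5 without scramble replicate 1, 3 without scramble replicate 2, and 6, 5 and 8 without replicates 1, 2 and 3 of si-snaR-A#1. For si-snaR-A#2 the 5 became 2 without scramble replicate 1, scramble replicate 2 or si-snaR-A#2 replicate 2, and for si-snaR-A#3 the 5 became 3 without scramble replicate 3.

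Adding the 7SL term moved the counts and the medians. With the term, 2 histone genes rose with si-snaR-A#1 (17.7% of all genes) and 0 fell (18.7% of all genes), and the median of the 47 went from 0.50 to 0.25, with 34 above 0. For si-snaR-A#2, 5 rose (13.2% of all genes) and 0 fell (11.5% of all genes), and these were the same 5 genes, with a median of 0.04. For si-snaR-A#3, 4 of the 5 that fell were still called (11.5% of all genes fell) and 2 others rose (15.2% of all genes), while the median went from -0.17 to 0.11 and the genes above 0 from 17 to 29 of 47. Over the mean of the 3 siRNAs, 1 histone gene, H2BC11, rose (15.6% of all genes) and 0 fell (16.6% of all genes), and with the term H2BC11 and H1-2 rose (15.1% of all genes) and 0 fell (15.3% of all genes). That mean count was 0 without scramble replicate 1 or 2, and 6 without scramble replicate 3.

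**Figure D3:**
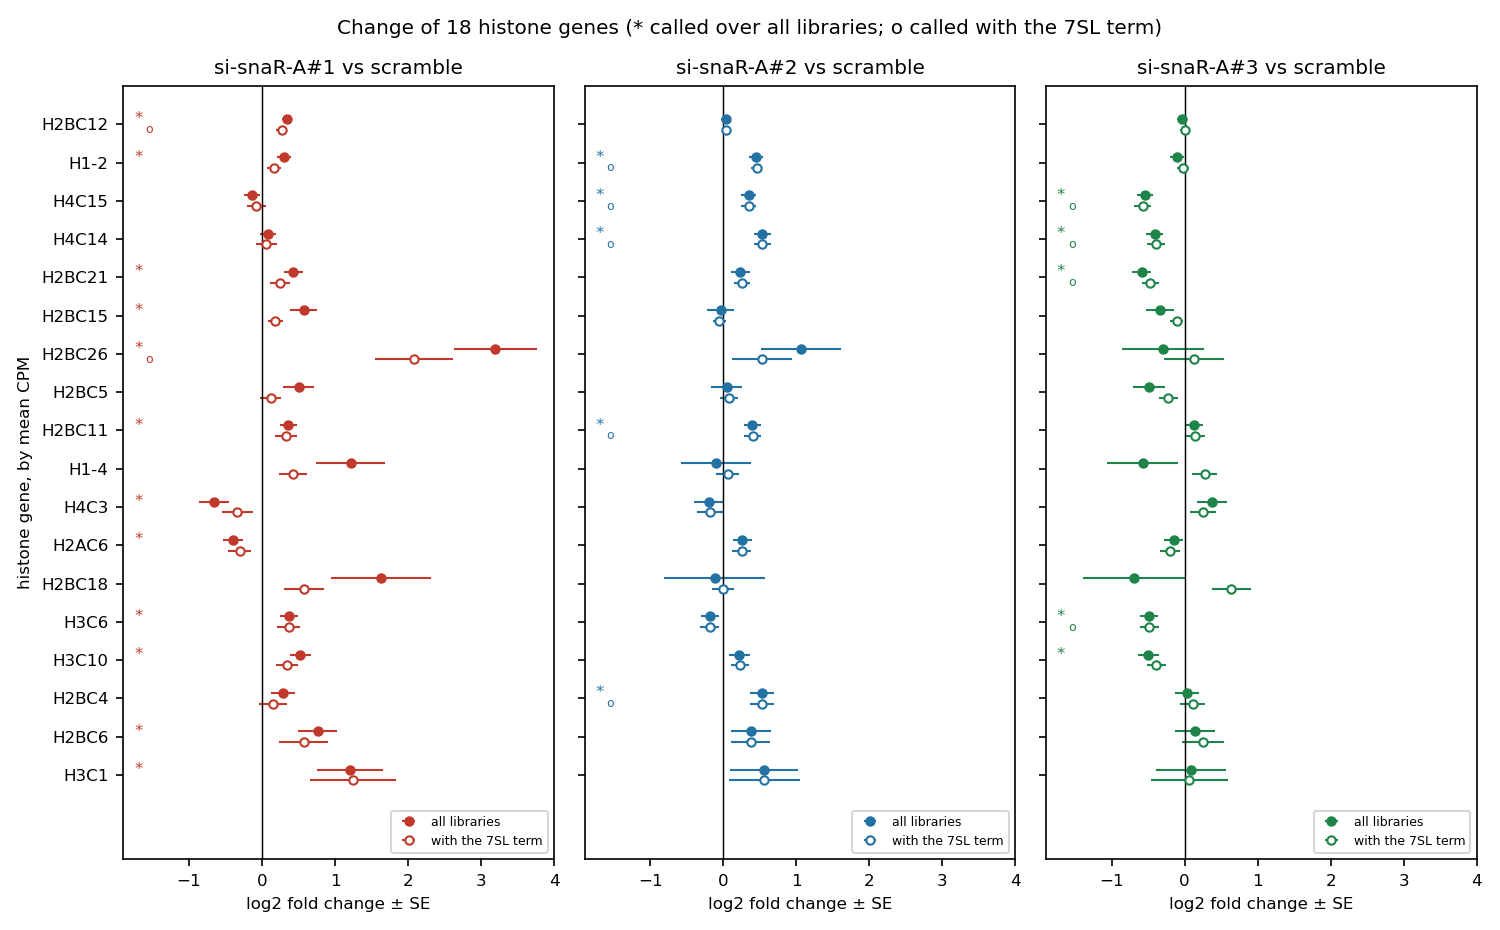
Log2 fold change ± SE of 18 named histone genes against scramble, ordered by mean CPM, for si-snaR-A#1 on the left, #2 in the middle and #3 on the right. Filled points are from all 12 libraries and open points from the model with the 7SL term, and asterisks and small circles at the left mark adjusted p under 0.05 in each. H2BC26 lies at 3.20 and 2.08 with si-snaR-A#1, and H4C14 and H4C15 lie above 0 with si-snaR-A#2 and below 0 with si-snaR-A#3.

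Between the siRNAs the histone genes differed too. Against si-snaR-A#2, 9 were higher with si-snaR-A#1 (23.7% of all genes) and 3 lower (23.0% of all genes). Against si-snaR-A#3, 17 were higher with si-snaR-A#1 (36.2%, against 23.8% of all genes) and 1, H4C3, was lower (24.8% of all genes). Against si-snaR-A#3, 5 were higher with si-snaR-A#2 (10.6%, against 6.52% of all genes) and 0 were lower (9.03% of all genes). Of the 17 that were higher with si-snaR-A#1 than with si-snaR-A#3, 6 were still called with the 7SL term, namely H2BC21, H2BC26, H2BC12, H4C15, H3C6 and H3C10. With the term, 6 were higher (15.2% of all genes) and 2, H4C8 and H4C16, lower (18.1% of all genes) with si-snaR-A#1 than with si-snaR-A#3, and 3 were higher (18.5% of all genes) and 4 lower (19.4% of all genes) than with si-snaR-A#2. All 5 that were higher with si-snaR-A#2 than with si-snaR-A#3, H1-2, H2BC21, H3C10, H4C14 and H4C15, were still called (5.58% of all genes), and H4C16, H4C5 and H2AC17 were then called lower (7.70% of all genes). These comparisons share libraries with each other and with those against scramble.

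**Figure D4:**
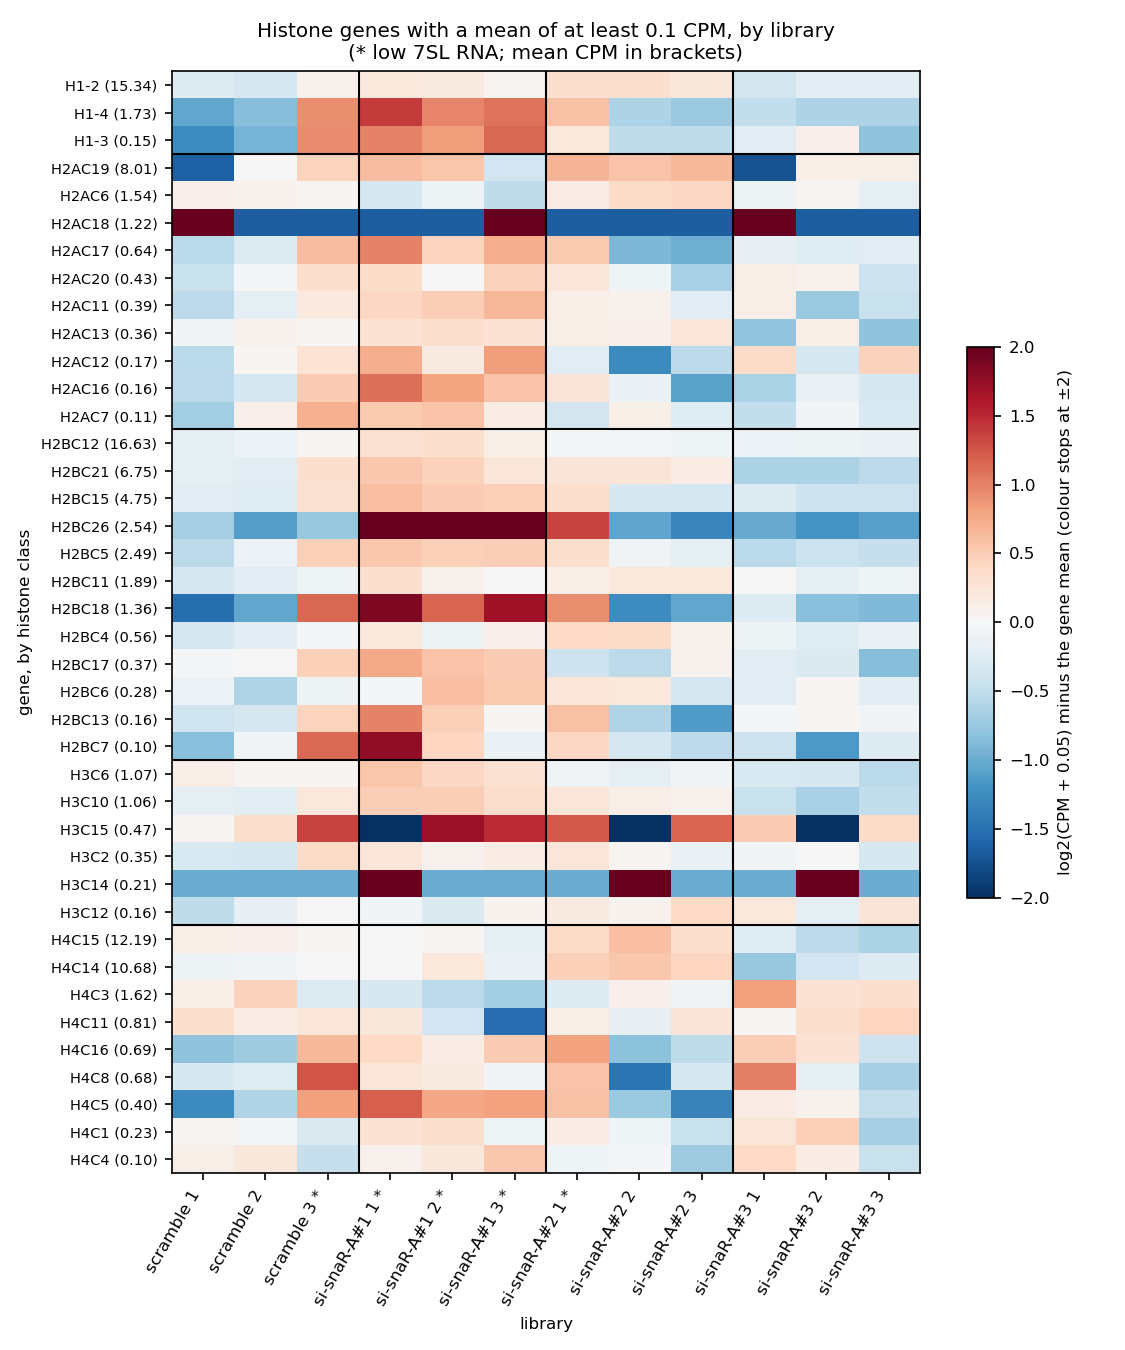
The 40 histone genes at 0.1 CPM or more on average (rows, by class and mean CPM, given in brackets) in the 12 libraries (columns, asterisks on the 5 low-7SL libraries), coloured by log2(CPM + 0.05) minus the mean of the gene, with the colour stopping at ±2. The 5 starred columns are redder than the rest for most H1, H2A and H2B rows, H4C14 and H4C15 are reddest with si-snaR-A#2, and H2AC18 and H3C14 show reads in 3 libraries each.

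The linker histone genes, whose product binds DNA between nucleosomes, were carried by H1-2. Its level was 12.7, 11.9 and 16.1 CPM in the scramble replicates, 17.5, 17.1 and 15.7 with si-snaR-A#1, 19.04, 18.8 and 17.6 with #2, and 11.7, 13.0 and 13.1 with #3. All si-snaR-A#2 libraries lay above all scramble libraries, whereas those of si-snaR-A#1 overlapped scramble replicate 3. H1-2 rose with si-snaR-A#2 by 0.45 ± 0.10 (log2 ± SE, edgeR adjusted p = 0.00413), by 0.46 with the 7SL term (adjusted p = 0.0012) and by 0.58 in high-7SL libraries only (adjusted p = 0.00183). In the low-7SL libraries the difference was 0.26, from 1 library against 1. With si-snaR-A#1 it rose by 0.31 ± 0.10 (edgeR adjusted p = 0.02), and with the term the value was 0.16 (adjusted p = 0.206). With si-snaR-A#3 the difference was -0.11 ± 0.10 (edgeR adjusted p = 0.43). H1-4 was not called against scramble with any siRNA. Its libraries of si-snaR-A#1 had 3.86, 2.87 and 3.07 CPM, all above scramble, and the log2 difference of 1.22 ± 0.48 went to 0.43 with the term (edgeR adjusted p = 0.0533 and 0.101). H1-3 was at 0.149 CPM on average, and H1-1 and H1-5 were not tested.

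H2A genes showed few changes that can be placed on 1 gene. H2AC18 and H2AC19, which encode the same H2A protein, summed to 7.73, 6.99 and 9.68 CPM in scramble, 10.9, 10.4 and 9.83 with si-snaR-A#1, 11.4, 10.5 and 11.2 with #2, and 6.84, 7.71 and 7.67 with #3. Each library of si-snaR-A#1 and #2 lay above each scramble library. In edgeR with the pairs merged, the sum rose by 0.35 ± 0.10 with si-snaR-A#1 (adjusted p = 0.0148) and by 0.44 ± 0.10 with si-snaR-A#2 (adjusted p = 0.00754). With the 7SL term the first was 0.20 (edgeR adjusted p = 0.16) and the second 0.45 (adjusted p = 0.00281). Neither single row was called, and their standard errors reached 2.25 and 0.50 with si-snaR-A#1. H2AC6 was at 1.63, 1.60 and 1.58 CPM in scramble and at 1.19, 1.41 and 1.05 CPM with si-snaR-A#1, a fall of -0.40 ± 0.13 on the log2 scale (edgeR adjusted p = 0.0257) that was -0.31 with the term (adjusted p = 0.161). H2AC11 rose with si-snaR-A#1 by 0.74 ± 0.27 (edgeR adjusted p = 0.0411), from 0.333 ± 0.0951 to 0.555 ± 0.0570 CPM (SD, n = 3), and the value was 0.49 with the term (adjusted p = 0.257).

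H2B genes held the largest single change. H2BC26, 1 of the 2 members at their place on chromosome 1, was at 0.877, 0.630 and 0.817 CPM in scramble and at 8.67, 6.01 and 6.73 CPM with si-snaR-A#1. In the libraries of si-snaR-A#2 it was at 3.68 CPM in replicate 1 and at 0.654 and 0.538 CPM in the others, and with si-snaR-A#3 at 0.677, 0.586 and 0.638 CPM. All si-snaR-A#1 libraries thus lay above all others, and the low-7SL library of si-snaR-A#2 stood between them and the rest, while the low-7SL library of scramble lay between the other scramble libraries. The rise with si-snaR-A#1 was 3.20 ± 0.57 on the log2 scale, 9.16-fold (edgeR adjusted p = 0.000491). It was 2.08 ± 0.53 with the 7SL term (edgeR adjusted p = 0.00954). Among low-7SL libraries it was 3.13, from 3 libraries against 1 of scramble. For si-snaR-A#2 the difference over all libraries was 1.07 ± 0.55 (edgeR adjusted p = 0.182), in high-7SL libraries -0.33 (adjusted p = 0.367) and in low-7SL libraries 2.19, the last from 1 library against 1. The annotated exons of H2BC26 span 5002 bases and run 4551 bases past the stem-loop, so the counts need not come from its coding part. H2AC25, the other member at that place, had a mean of 0.00619 CPM.

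H2BC12, the most abundant member, was at 14.5, 15.3 and 16.96 CPM in scramble and at 20.5, 20.7 and 17.9 CPM with si-snaR-A#1, without overlap. Since 71.0% of its words are shared with other genes, the level depends on how reads were assigned to H2BC12. Its values were 16.2, 16.2 and 15.6 CPM with si-snaR-A#2 and 15.2, 15.3 and 15.1 CPM with si-snaR-A#3. The rise with si-snaR-A#1 was 0.34 ± 0.07 (edgeR adjusted p = 0.000993), 0.27 ± 0.08 with the term (adjusted p = 0.0164) and 0.22 in low-7SL libraries, 3 against 1. H2BC11 rose with si-snaR-A#1 by 0.36 ± 0.12 and with si-snaR-A#2 by 0.40 ± 0.12 (edgeR adjusted p = 0.0225 and 0.0235), from 1.61 ± 0.145 CPM in scramble to 2.07 ± 0.241 and 2.12 ± 0.0764 CPM (SD, n = 3). With the term the values were 0.33 (edgeR adjusted p = 0.107), not called, and 0.40 (adjusted p = 0.0312). It was the only histone gene called in the mean of the 3 siRNAs over all libraries, at 0.30 ± 0.10 (edgeR adjusted p = 0.0327, and 0.047 with the term). With si-snaR-A#3 it was at 1.76 ± 0.105 CPM, a difference of 0.13 ± 0.12 (edgeR adjusted p = 0.452). H2BC4 rose with si-snaR-A#2 by 0.53 ± 0.16 (edgeR adjusted p = 0.0328, and 0.0329 with the term), and in high-7SL libraries only the value was 0.57 and not called (adjusted p = 0.11).

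H2BC21 went in opposite directions. It was at 5.69, 5.52 and 8.12 CPM in scramble, 9.46, 8.95 and 7.67 with si-snaR-A#1, 7.79, 7.78 and 7.18 with #2, and 4.17, 4.16 and 4.52 with #3. The si-snaR-A#3 libraries lay below all others, and scramble replicate 3 lay within the range of si-snaR-A#1. It fell with si-snaR-A#3 by -0.59 ± 0.13 (edgeR adjusted p = 0.00513), by -0.47 with the 7SL term (adjusted p = 0.0118) and by -0.39 in high-7SL libraries only (adjusted p = 0.0184). The rise of 0.43 ± 0.13 with si-snaR-A#1 (edgeR adjusted p = 0.0176) was 0.25 with the term (adjusted p = 0.173) and 0.10 in low-7SL libraries, 3 against 1. Between si-snaR-A#1 and #3 the difference was 1.02 ± 0.13 (edgeR adjusted p = 3.82e-05) and 0.72 with the term (adjusted p = 0.00492). With si-snaR-A#2 it was not called over all libraries (0.23, edgeR adjusted p = 0.229) and was 0.43 higher in high-7SL libraries only (adjusted p = 0.0232).

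Other H2B genes had smaller differences with the 7SL term. H2BC15 was at 3.93, 3.84 and 5.63 CPM in scramble and 6.99, 6.54 and 6.36 CPM with si-snaR-A#1, a rise of 0.57 ± 0.19 (edgeR adjusted p = 0.0245) that was 0.18 ± 0.10 with the term (adjusted p = 0.207). In si-snaR-A#2 it was at 5.86 CPM in the low-7SL replicate 1 and at 3.63 and 3.56 CPM in the others. H2BC5 and H2BC18 were not called against scramble, at 0.50 ± 0.21 and 1.63 ± 0.69 with si-snaR-A#1 (edgeR adjusted p = 0.0714 and 0.0719), and at 0.12 and 0.58 with the term (adjusted p = 0.578 and 0.132). Against si-snaR-A#3, H2BC18 was 2.32 ± 0.71 higher with si-snaR-A#1 over all libraries (edgeR adjusted p = 0.0165), and with the term the sign turned, to -0.06 ± 0.33 (adjusted p = 0.909). H2BC6, at 0.279 CPM, rose with si-snaR-A#1 by 0.76 ± 0.27 (edgeR adjusted p = 0.0351, and 0.211 with the term).

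**Figure D5:**
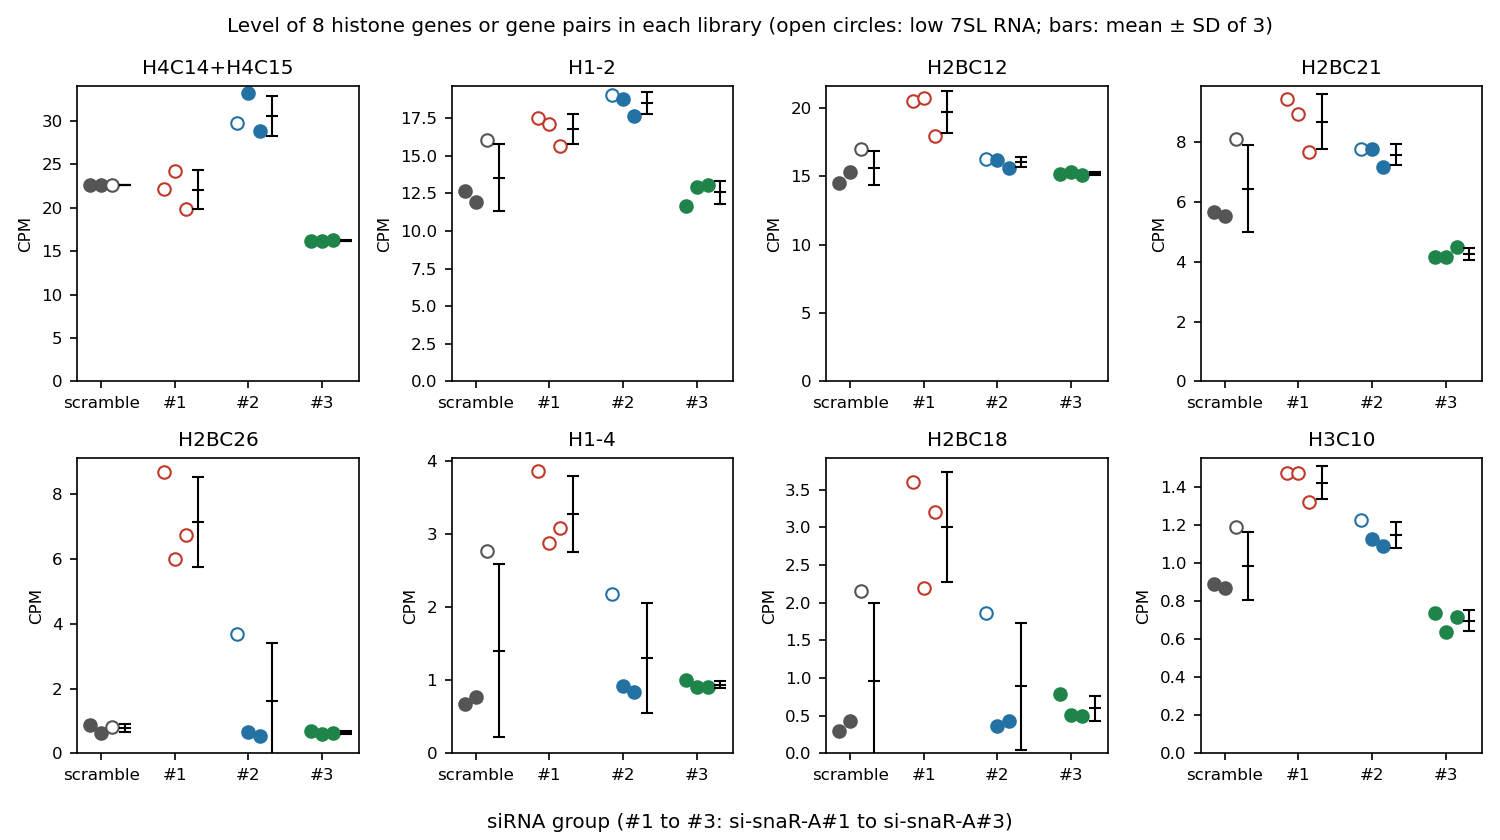
CPM of H4C14 plus H4C15, H1-2, H2BC12, H2BC21, H2BC26, H1-4, H2BC18 and H3C10 in each library by siRNA group, all axes starting at 0. Open circles are low-7SL and filled circles high-7SL libraries, and the bars give the mean ± SD of 3 (cut at 0 where they would go below). H4C14 plus H4C15 lies at 22.6 CPM in all scramble libraries, 28.8 to 33.1 with si-snaR-A#2 and 16.1 to 16.3 with si-snaR-A#3, while in H1-4 and H2BC18 the open circles are high in every group that has them.

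Both H3 genes above 1 CPM were on opposite sides of scramble with si-snaR-A#1 and #3. H3C6 was at 1.14, 1.08 and 1.07 CPM in scramble, 1.55, 1.40 and 1.30 with si-snaR-A#1, 0.991, 0.910 and 0.998 with #2 and 0.832, 0.823 and 0.703 with #3, with no overlap between scramble and any siRNA. The rise with si-snaR-A#1 was 0.37 ± 0.12 (edgeR adjusted p = 0.0249, and 0.0896 with the term) and the fall with si-snaR-A#3 was -0.48 ± 0.12 (adjusted p = 0.0103, and 0.0212 with the term). The value hardly moved with the term, at 0.37 and -0.48. H3C10 was at 0.987 ± 0.180 CPM in scramble, 1.42 ± 0.0867 with si-snaR-A#1, 1.15 ± 0.0689 with #2 and 0.699 ± 0.0545 with #3 (SD, n = 3). It rose with si-snaR-A#1 by 0.53 ± 0.14 (edgeR adjusted p = 0.00853, and 0.0955 with the term) and fell with si-snaR-A#3 by -0.50 ± 0.15 (adjusted p = 0.0212, and 0.0542 with the term). In high-7SL libraries only, H3C6 fell with si-snaR-A#3 by -0.50 (edgeR adjusted p = 0.0492), and H3C10 was at -0.33 (adjusted p = 0.156). H3C1 rose with si-snaR-A#1 by 1.203 ± 0.45 (edgeR adjusted p = 0.0461, and 0.126 with the term), from 0.0647 to 0.149 CPM. The H3C14 and H3C15 sum rose with si-snaR-A#1 by 1.22 ± 0.34 (edgeR with pairs merged, adjusted p = 0.00962), and by 0.79 with the term, which was not called (adjusted p = 0.073).

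H4 genes held a result that hardly moved with the 7SL term. H4C14 and H4C15, which share an identical annotated transcript, summed to 22.6 ± 0.0163 CPM in scramble (SD, n = 3). The SD of the sum was 2.24, 2.28 and 0.0716 CPM with si-snaR-A#1, #2 and #3, so the scramble SD is a poor guide to the spread. With si-snaR-A#1 the 3 libraries had 22.2, 24.3 and 19.8 CPM, with si-snaR-A#2 29.7, 33.1 and 28.8, and with #3 16.2, 16.1 and 16.3. Scramble lay within the range of si-snaR-A#1, below all of si-snaR-A#2 and above all of si-snaR-A#3. In edgeR with the pairs merged, the sum rose by 0.43 ± 0.07 with si-snaR-A#2 (adjusted p = 0.000454) and fell by -0.48 ± 0.07 with si-snaR-A#3 (adjusted p = 0.000186), and with the 7SL term the values were 0.43 and -0.49 (adjusted p = 0.000885 and 0.000554). With si-snaR-A#1 the difference was -0.03 ± 0.07 (edgeR adjusted p = 0.716). Between si-snaR-A#2 and #3 it was 0.92 ± 0.07 (edgeR adjusted p = 4.24e-06). Both single rows passed in both directions, H4C14 at 0.53 and -0.41 (edgeR adjusted p = 0.00396 and 0.0171) and H4C15 at 0.35 and -0.54 (adjusted p = 0.0258 and 0.0018). In high-7SL libraries only, H4C14 was at 0.58 and -0.37 (edgeR adjusted p = 0.0247 and 0.0691) and H4C15 at 0.37 and -0.57 (adjusted p = 0.0949 and 0.0112), so that each kept its call in 1 direction.

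The remaining H4 genes did not follow this pair. H4C3 was at 1.69, 2.15 and 1.28 CPM in scramble, 1.24, 1.06 and 0.949 with si-snaR-A#1, 1.29, 1.68 and 1.498 with #2, and 2.77, 1.91 and 1.95 with #3. It fell with si-snaR-A#1 by -0.65 ± 0.21 (edgeR adjusted p = 0.0203), and the value was -0.34 with the term (adjusted p = 0.26). H4C16 and H4C5 were called with si-snaR-A#3 only when the term was present, at 1.03 and 1.05 (edgeR adjusted p = 0.00906 and 0.0309), against 0.32 and 0.05 without it. H4C16 had 0.903, 0.779 and 0.460 CPM with si-snaR-A#3 and 0.341, 0.363 and 1.01 CPM in scramble, so that the call rests on setting scramble replicate 3 apart. The H4C11 and H4C12 sum was not called with any siRNA, with differences between -0.30 and 0.02.

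Summed over a class, the levels repeat these patterns without depending on how reads split between copies of that class, and they carry no test. They still depend on reads shared outside the class. H2BC12 shared 61.9% of its words with a gene outside the set, and H2AC17 shared 69.1% with H3C12. H2B genes summed to 33.7 ± 6.04 CPM in scramble, 52.7 ± 4.25 with si-snaR-A#1, 36.6 ± 5.05 with #2 and 28.9 ± 0.390 with #3 (SD, n = 3). The H4 sum was 27.4 ± 0.882, 26.7 ± 2.17, 34.7 ± 2.03 and 21.5 ± 1.17 CPM in the same order. H1 summed to 15.1 ± 3.52, 20.3 ± 1.32, 19.9 ± 1.42 and 13.6 ± 0.712 CPM, and H2A to 11.98 ± 2.05, 15.1 ± 0.698, 14.98 ± 0.729 and 10.8 ± 0.540 CPM. The H3 sum was the smallest, 3.17 ± 0.603, 4.80 ± 0.567, 3.47 ± 0.265 and 2.57 ± 0.209 CPM. With si-snaR-A#1 the sums of H2A, H2B and H3 did not overlap scramble, with si-snaR-A#2 that of H4 did not, and with si-snaR-A#3 those of H2B, H3 and H4 did not. The sum of all 68 genes was 83.5, 84.1 and 106 CPM in scramble, 127.6, 119.9 and 111.2 CPM with si-snaR-A#1, 118.1, 108.5 and 102.3 CPM with #2, and 77.8, 78.0 and 76.4 CPM with #3. Only the sums with si-snaR-A#2 overlapped scramble.

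Promoters were compared between histone classes and with all promoters. Whether members that moved together share elements was not tested. The RefSeq table for GRCh38.p14 matched 62 of the 68 genes, each with the window from 250 bases before to 50 after its first listed start. TATAAA was found in 66.1% of these and in 11.95% of all 27305 promoters, CCAAT in 83.9% against 35.7%, and the octamer ATTTGCAT, known from H2B promoters, in 40.3% against 1.80%, each searched on both strands. By class, CCAAT was in every H1, H2A, H2B and H3 promoter and in 23.1% of those of H4, and the octamer in 77.8% of H2B and 66.7% of H2A promoters and in 0 of those of H1 and H4. Its 1 match in H3 is in the window listed for H3C4, which is the window of H2AC7 and enters these shares under both genes. Windows of H2A and H2B genes on opposite strands can overlap, as those of H2AC11 and H2BC11 do, so the same match counts for both. Those of H4C14 and H4C15 have the same letters. The shares are therefore not counts over separate promoters. The 2 H2B genes still called with si-snaR-A#1 under the 7SL term are shown, with matches to these letters in capitals on either strand (ATTGG and TTTATA are the other strand of CCAAT and TATAAA).
H2BC12: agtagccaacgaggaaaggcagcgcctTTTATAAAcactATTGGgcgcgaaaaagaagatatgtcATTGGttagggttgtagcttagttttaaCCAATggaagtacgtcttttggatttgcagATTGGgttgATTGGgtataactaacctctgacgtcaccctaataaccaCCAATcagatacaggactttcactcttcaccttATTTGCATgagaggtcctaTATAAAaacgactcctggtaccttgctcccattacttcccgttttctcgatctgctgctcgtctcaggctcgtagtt
H2BC26: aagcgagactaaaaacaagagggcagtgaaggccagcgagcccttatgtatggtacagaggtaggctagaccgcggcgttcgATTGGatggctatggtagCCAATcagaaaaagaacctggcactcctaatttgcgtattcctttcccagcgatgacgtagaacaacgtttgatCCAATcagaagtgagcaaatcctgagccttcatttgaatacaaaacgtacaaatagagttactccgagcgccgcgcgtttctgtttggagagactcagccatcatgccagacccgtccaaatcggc
The first lies at chr6:27146809-27147108 on the minus strand and the second at chr1:228457853-228458152 on the plus strand. H2BC12 had all 3 kinds of match and H2BC26 only CCAAT, which says no more than that the other letters are not in this window.

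Genes that act on histone mRNA or its products were read from lists made by known role, in the mean of the 3 siRNAs, where 15.6% of all genes rose and 16.6% fell. SLBP, which binds the stem-loop, was at 93.3 CPM on average and was not called with any siRNA, with differences of 0.00, 0.07 and 0.10 with si-snaR-A#1, #2 and #3 (edgeR adjusted p = 0.948, 0.315 and 0.155). Of 16 tested genes of histone mRNA 3′ end processing and decay, 5 rose and 4 fell, with a median of 0.08 (-0.04 over all genes). SYMPK, a scaffold of the cleavage complex, rose by 0.25, ZNF473, a U7-associated protein, by 0.19 and ERI1, an exonuclease that trims histone mRNA ends, by 0.18. LSM11 and LSM10, proteins of the U7 snRNP, fell by -0.23 and -0.16, and the cap-binding NCBP2 by -0.17. Among 13 tested genes of ordinary cleavage and polyadenylation, 3 rose, CSTF3 by 0.29, FIP1L1 by 0.19 and CSTF1 by 0.10, and 3 fell, PABPN1 by -0.57, CPSF6 by -0.21 and CPSF7 by -0.13. The fall of PABPN1, a nuclear poly(A)-binding protein, was -1.51 with si-snaR-A#1, -0.18 with #2 and -0.02 with #3 (edgeR adjusted p = 1.85e-09, 0.0324 and 0.798), the last not called, and with the 7SL term the first was -1.53 (adjusted p = 7.44e-08).

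Of 7 tested regulators of histone gene transcription, E2F1 rose by 0.19 and 3 fell, NPAT by -0.15, HINFP by -0.15 and CDK2 by -0.09. NPAT, a coactivator at histone gene clusters, was at 55.2 ± 2.79 CPM in scramble and 38.0 ± 1.08 CPM with si-snaR-A#1 (SD, n = 3), a fall of -0.54 (edgeR adjusted p = 8.86e-06) that was -0.46 with the term (adjusted p = 0.000163), and was not called with si-snaR-A#2 or #3 (adjusted p = 0.551 and 0.107). CASP8AP2 was listed at 0 in all libraries. Of 11 tested genes listed as replication-independent histone genes, whose mRNAs are polyadenylated as a rule, H2AJ rose by 0.45, H2AX by 0.21 and H3-3A by 0.20. MACROH2A1 fell by -0.17. H2AX, which the stem-loop search also found, was at 31.9 ± 2.39 CPM in scramble, 48.6 ± 1.18 with si-snaR-A#1, 32.1 ± 1.96 with #2 and 31.9 ± 3.09 with #3 (SD, n = 3). It rose with si-snaR-A#1 by 0.61, and by 0.53 with the 7SL term (edgeR adjusted p = 1.83e-05 and 0.000404).

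Histone chaperones and S-phase genes had more rises than falls in the mean of the siRNAs. Of 15 tested chaperones and modifiers of new histones, 6 rose, led by CABIN1 at 0.46, NASP at 0.31 and SUPT16H at 0.23, and ASF1A fell by -0.13, with a median of 0.09. Of 14 S-phase genes, 7 rose, led by RRM2 at 0.48, CDC45 at 0.29 and MCM2 at 0.25, and CDC6 fell by -0.11. By siRNA, 5 of the 14 rose and 4 fell with si-snaR-A#1, 9 rose and 0 fell with si-snaR-A#2, and 6 rose and 0 fell with si-snaR-A#3, where the histone genes above had 11 and 2, 5 and 0, and 0 and 5. Over all genes, 21.9% and 23.3%, 13.7% and 12.1%, and 16.5% and 13.0% rose and fell in the same order. CDC6, a replication licensing factor, fell with si-snaR-A#1 by -0.50 (edgeR adjusted p = 4.5e-07, and 1.29e-05 with the term). All of these changes in the mean of the 3 siRNAs were also called with the 7SL term except those of HINFP, CDK2 and CHAF1A, the last a chaperone subunit that rose by 0.09 (edgeR adjusted p with the term = 0.0646, 0.0714 and 0.0575). Their part in the histone changes was not tested.

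Some checks bear on all of the above. snaR-A itself had 0 rows by symbol in the table, so its depletion was not checked here. The markers KRT18 (27.9 to 34.9 CPM), VIM and NEFM were present and KRT19, PTPRC, CD3E, HBB, ALB and COL1A2 were at or near 0, while COL1A1 (13.0 to 27.0 CPM) and LUM (3.02 to 8.29 CPM), genes of connective tissue, were present in all libraries and were lower and higher, respectively, in the mean of the 3 siRNAs (edgeR adjusted p = 8.87e-06 and 0.0329). Not all listed markers are named here. In the mean of the 3 siRNAs, 0 of 4 tested epithelial markers rose and 1 fell. Of 4 tested markers known of HEK293 lines, 2 rose and 0 fell. Over all genes, 15.6% rose and 16.6% fell. The spread between replicates exceeded that of counting, the chi-square over its degrees of freedom being 12.5 to 59.8 for pairs within a group.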

How the data were processed

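Poly(A)-enriched, stranded RNA-seq was done on HEK293T cells in 4 groups of 3 libraries. The authors trimmed reads with Trim Galore and quantified them with Salmon, with hg38 named as the build per the labels, and deposited 1 table of estimated counts per gene. The transcriptome release, the gene-level step and the use of strand are not given in the sources used here. The deposited values are not whole numbers and were rounded. 0 columns were left out. Gene models and sequences came from GENCODE 44 and GRCh38, promoters from RefSeq.

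Genes were filtered with filterByExpr (minimum count 10), scaled by TMM and tested with edgeR 4.0.16 (R 4.3.3, limma 3.58.1), quasi-likelihood test, all 12 libraries in 1 fit, Benjamini-Hochberg over 21999 genes, called at an adjusted p under 0.05. Values printed after ± are SE for log2 changes. This SE was derived from the test, as the size of the log2 change over the square root of its F statistic. DESeq2 1.42.0, RLE and upper quartile scaling, other filters, unrounded values, a replicate block, only the groups compared and leaving out each library were tried as well. The 7SL term (libraries under or over 10 CPM of RN7SL1 plus RN7SL2), the fits within either kind and the merged pairs (over 90% of 31-base words shared) were chosen after seeing the data. The steps were checked on simulated data.

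Members and lists were chosen with earlier results of these data known. Named members were those tested with a mean of at least 1 CPM, the 3 largest rises and falls called against scramble, and those called in opposite directions; others are given where a result turns on them. From each companion list, up to 3 called genes in each direction were named, plus SLBP, NPAT and CASP8AP2. A result for 1 listed gene is not reported here. CHAF1A, the low-level members of the 7SL comparison and values within it were named after they were seen.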

Additional observations from a re-analysis of the deposited data

Results flagged for a closer look

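In 5 histone genes the siRNAs differed from each other by the test of that difference, with called changes against scramble in opposite directions. The opposite calls come from the same libraries and the same fit, so the test between the siRNAs is not separate support for them. H2BC21 was 1.02 ± 0.13 higher with si-snaR-A#1 than with si-snaR-A#3 on the log2 scale (SE, edgeR adjusted p = 3.82e-05), and 0.72 higher with the 7SL term. H3C10 was 1.02 ± 0.15 higher in the same comparison (edgeR adjusted p = 7.1e-05), and 0.73 with the term. H3C6 was 0.85 ± 0.12 higher (edgeR adjusted p = 8.67e-05), and 0.85 with the term. H4C14 was 0.94 ± 0.12 higher with si-snaR-A#2 than with si-snaR-A#3 (edgeR adjusted p = 0.000174), and 0.93 with the term. H4C15 was 0.89 ± 0.11 higher there (edgeR adjusted p = 0.000132), and 0.92 with the term. In each case all 3 libraries of the first siRNA lay above all 3 of the second. Against scramble, the rises of H2BC21, H3C6 and H3C10 with si-snaR-A#1 were not called with the 7SL term (edgeR adjusted p = 0.173, 0.0896 and 0.0955), nor was the fall of H3C10 with si-snaR-A#3 (adjusted p = 0.0542). H4C14 and H4C15 share reads and count as 1 result. The siRNAs compared for this pair, #2 and #3, are nearly identical in sequence, and why they differed was not tested.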

How the results depend on the processing

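The 13 histone genes called with si-snaR-A#1 became 2 with the term, 2 with pairs merged and the term, and 3 to 17 on leaving out 1 library. Calls within low-7SL libraries are not counted, since scramble has 1 library there. The 5 with si-snaR-A#2 became 2 to 5 on leaving out 1 library. The 5 with si-snaR-A#3 became 3 with no filter and 3 to 6 on leaving out 1 library. The 1 in the mean of the siRNAs became 3 with RLE scaling, no filter, a filter at 1 CPM or DESeq2, 2 with the term, with or without merged pairs, and 0 to 6 on leaving out 1 library. Between siRNAs, the 12 for si-snaR-A#1 and #2 became 7 with the term and 6 with merged pairs too. In the same order, the 18 for si-snaR-A#1 and #3 became 8 and 8, and the 5 for si-snaR-A#2 and #3 became 8 and 8. Over all genes, low-7SL libraries gave 5293, 482 and 5540 calls where all libraries gave 9941, 5673 and 10277 (si-snaR-A#1, si-snaR-A#2, and between them), with fewer samples, and si-snaR-A#2 against si-snaR-A#3 had 3421, 2038 in high-7SL libraries and 2215 to 3830 on leaving out 1. In the lists, the 4 transcription regulators became 2 with RLE, no filter, DESeq2 and the term (merged too), and 0 to 4 on leaving out 1 library, the 9 processing genes 5 to 10 and the 7 chaperones 4 to 10. H2BC18 between si-snaR-A#1 and #3 turned to -0.063 with the term and -0.064 with merged pairs too. Beyond the fits with fewer samples the cause was not tested.

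Replicate numbers did not pair the libraries (correlation of deviations -0.066 to 0.085 for equal numbers, n = 18, and -0.115 to 0.107 for unequal ones, n = 36). With the replicate block, 11, 4, 5 and 1 histone genes were called with si-snaR-A#1, #2, #3 and their mean, and 46 of 49 called values of named genes were called as before. With the 7SL term 29 of the 49 were still called, 19 were not and 1 was reversed. Of 1143 recomputed values 2 were reversed. A gene under about 0.05 CPM has no test at this depth.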
